A study of Mus musculus with 8 samples.

Results

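The regions described here were open chromatin sites called in thymic group 2 innate lymphoid cells (ILC2s) only when the cells carried an activated form of the transcription factor E47, at both time points examined. They were found by ATAC-seq, in which the Tn5 transposase cuts accessible DNA, chosen by their calls, as stretches present in both E47 peak lists and overlapping no region of either control list by 1 bp or more. Of 60835 union regions over the 4 lists, 2088 met this rule (3.43%, exact 95% interval 3.29% to 3.58%). The calls that selected them are measured values of these cells, so strength and fold are described and not tested. The mirror set, called in both control lists and in neither E47 list, held 2776 regions (4.56%).

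The ILC2s came from the thymus of plck-Id1 mice on the C57BL/6 strain, whose Id1 transgene is driven by the proximal Lck promoter and was therefore carried by the cells of every group. After cytokine stimulation the cells received a MIGR1 retrovirus for GFP alone or for GFP together with E47-ER, in which E47 is fused to an estrogen receptor part that responds to tamoxifen. GFP-positive cells were sorted and expanded with cytokines, among them IL-33, IL-25 and IL-7. The cells of all groups, controls included, were then treated with 4-hydroxytamoxifen. The 4 groups were E47 at 4 h, E47 at 16 h, GFP at 4 h and GFP at 16 h, with 2 samples each. The labels do not say how many animals or cultures stood behind a sample, and ages were not given. Each group had 1 deposited peak list made from its 2 samples, so the spread between replicates could not be measured, no difference between groups could be tested, and the values below describe these 4 lists. The lists held 49811 (E47 4 h), 40649 (E47 16 h), 42665 (GFP 4 h) and 52846 (GFP 16 h) regions, and the read depth behind them is unknown.

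The free-text descriptions of the samples are at odds with the titles and transduction labels followed here: in each group they give the vector without E47-ER to replicate 1 and the one with E47-ER to replicate 2. If the descriptions were right, each list would mix both vectors. The markers of the labelled cell type were open in every list: all 9 ILC2 markers (among them Gata3, Il1rl1 and Il13) had at least 1 region within 5 kb in each. Of 8 T cell markers, 7, 6, 6 and 7 had a region in the same order of lists, and Cd8a had none. Between 3 and 4 of 5 B cell markers and 2 and 3 of 5 myeloid markers had a region. Of the myeloid markers, Spi1 and Itgam had at least 1 region in every list, and Csf1r and Lyz2 were without any in all lists. In each list, 3 of 4 markers of NK cells and ILC1s and 2 of 4 mast cell markers had a region. An open region at a gene is not expression of that gene, and in bulk samples fewer cells with an open site cannot be told apart from a site less open in each cell.

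E47 is a product of Tcf3 and belongs to the E proteins, basic helix-loop-helix factors that bind DNA as dimers at the E-box, the letters CANNTG. E proteins drive early T and B lymphocyte development. Id proteins such as Id1 and Id2 pair with them and keep them off DNA, and innate lymphoid cells depend on Id2. A thymic ILC2 is therefore a cell in which E protein activity is normally held low, and activated E47-ER adds it back. The E-box forms usually assigned to E protein dimers are CAGCTG, the palindrome, as well as CAGGTG and also the variant CAGATG.

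Promoter windows were the only stretches of the regions for which sequence was at hand. The E47-only regions at the starts of 7 genes are shown, chosen after their values were seen: Tmco4, Nkain1, E2f2, Slamf1, Gzma and Rbpjl hold at least 1 of the 3 E-box forms, whereas Cd244a holds none. Each line gives the 250 bases before the RefSeq gene start (GRCm38.p6, the assembly of mm10), 5′ to 3′ on the strand of the gene, with those E-boxes in capitals on either strand.
Tmco4: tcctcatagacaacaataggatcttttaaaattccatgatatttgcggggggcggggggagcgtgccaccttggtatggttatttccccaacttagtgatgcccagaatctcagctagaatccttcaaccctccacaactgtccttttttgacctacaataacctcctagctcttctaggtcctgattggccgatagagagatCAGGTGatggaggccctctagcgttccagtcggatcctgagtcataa
Nkain1: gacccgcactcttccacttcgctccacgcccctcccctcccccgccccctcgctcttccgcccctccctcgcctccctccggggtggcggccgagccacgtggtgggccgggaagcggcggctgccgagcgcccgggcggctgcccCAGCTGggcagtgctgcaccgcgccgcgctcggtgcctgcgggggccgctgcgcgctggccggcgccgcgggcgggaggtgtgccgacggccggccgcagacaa
E2f2: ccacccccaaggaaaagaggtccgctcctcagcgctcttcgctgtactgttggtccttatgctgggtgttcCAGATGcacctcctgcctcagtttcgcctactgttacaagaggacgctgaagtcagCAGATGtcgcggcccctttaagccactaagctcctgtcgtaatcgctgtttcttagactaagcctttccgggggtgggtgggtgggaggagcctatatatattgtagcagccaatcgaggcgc
Slamf1: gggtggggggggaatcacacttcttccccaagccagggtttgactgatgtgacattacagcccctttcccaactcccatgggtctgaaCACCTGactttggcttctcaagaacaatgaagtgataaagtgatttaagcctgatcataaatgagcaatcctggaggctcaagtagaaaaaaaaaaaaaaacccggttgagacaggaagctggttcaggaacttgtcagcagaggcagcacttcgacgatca
Gzma: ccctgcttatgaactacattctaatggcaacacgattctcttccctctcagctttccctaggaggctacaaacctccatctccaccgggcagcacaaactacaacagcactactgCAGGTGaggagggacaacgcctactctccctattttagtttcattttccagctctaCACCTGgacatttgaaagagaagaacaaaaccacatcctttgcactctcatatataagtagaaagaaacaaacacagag
Rbpjl: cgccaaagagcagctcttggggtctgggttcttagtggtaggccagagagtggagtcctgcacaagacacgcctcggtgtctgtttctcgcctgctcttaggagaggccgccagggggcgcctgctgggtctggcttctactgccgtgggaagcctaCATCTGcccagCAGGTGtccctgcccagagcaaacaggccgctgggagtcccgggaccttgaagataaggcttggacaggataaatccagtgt
Cd244a: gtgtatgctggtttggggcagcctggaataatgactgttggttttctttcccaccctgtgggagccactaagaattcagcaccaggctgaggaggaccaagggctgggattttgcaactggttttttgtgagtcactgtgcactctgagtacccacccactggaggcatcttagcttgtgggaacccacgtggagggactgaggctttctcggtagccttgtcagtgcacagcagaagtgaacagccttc

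In Tmco4, which encodes a transmembrane and coiled-coil protein (chr4:138972033-138972282, plus strand), CAGGTG starts 47 bases before the gene start. Its middle, from which distances to summits are taken here, lies 9 bp from the summit of the region in the E47 lists. In Nkain1, a partner of the sodium pump (chr4:130574037-130574286, minus strand), CAGCTG starts 104 bases before the start, and its middle lies 5 bp from the summit. Rbpjl, a relative of the Notch effector Rbpj (chr2:164402944-164403193, plus strand), has CATCTG, the reverse strand of CAGATG, over the summit itself and CAGGTG 11 bp from it. In Gzma, the gene for the cytotoxic protease granzyme A (chr13:113100982-113101231, minus strand), the letters CAGGTG and their reverse strand CACCTG lie 87 bp and 31 bp from the summit. The 2 copies of CAGATG in E2f2, a cell cycle factor (chr4:136172024-136172273, plus strand), lie 161 bp and 105 bp from it. In Slamf1, a receptor of the SLAM family (chr1:171766882-171767131, plus strand), CACCTG lies 157 bp away. The Cd244a window (chr1:171558943-171559192, plus strand), of another SLAM receptor, has none of the 3 forms but does hold CACGTG, another E-box, within the 300 bases searched.

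The folds of these regions were modest. Fold enrichment is the height over local background as the authors gave it, taken from the highest peak of the region, and is not comparable between lists. At 4 h and 16 h it was 4.74 and 4.93 at Tmco4, 7.63 and 7.15 at Nkain1, and 4.19 and 3.59 at E2f2. The Slamf1 region had 7.93 and 7.20, and the Gzma region had 4.80 and 5.46. Rbpjl had 7.77 and 6.83, and Cd244a had 7.32 and 8.60. None of the 7 was called in a GFP list, which is what the rule required. Absence from a list means no call, and such a site can still be open at a level below the threshold of the caller.

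Of the 2088 E47-only regions, 77 (3.69%) overlapped a promoter window (250 bases before to 50 after a RefSeq start), against 77 of the 2776 GFP-only regions (2.77%) and 31.3% of the 29667 regions in all 4 lists. Motifs were counted in windows of which the region covered at least 150 bases, 1 window for each region. At least 1 of the 3 E-box forms, on either strand, was in 23 of 43 E47-only windows (53.5%, exact 95% interval 37.7% to 68.8%). The share was 28.8% (17.8% to 42.1%) in the 59 GFP-only windows and 36.1% (35.1% to 37.2%) in the windows of regions in all 4 lists. All 32851 RefSeq windows together had 44.3%. The E47-only interval lay above the share in the all-lists windows and held the share of all windows. It overlapped that of the GFP-only windows. Among windows of regions found in a single list, the share was 46.7% (28.3% to 65.7%) with GFP at 4 h and 43.4% (33.8% to 53.4%) with GFP at 16 h. It was 62.8% (51.7% to 73.0%) with E47 at 4 h and 56.8% (39.5% to 72.9%) with E47 at 16 h. All 4 of these intervals overlapped that of the E47-only windows.

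The single forms had overlapping intervals in E47-only and GFP-only windows. CAGCTG was in 27.9% of E47-only windows, 20.3% of GFP-only windows, 14.1% of all-lists windows and 16.3% of all windows. CAGGTG was in 23.3% of the E47-only and 10.2% of the GFP-only windows, and CAGATG was in 23.3% and 8.47%. Regions found only with GFP at 4 h had CAGGTG in 6 of 30 windows (7.71% to 38.6%), and those found only with GFP at 16 h had CAGATG in 22.6%, close to the E47-only shares. The other form was lower in each, with CAGATG in 10% at 4 h and CAGGTG in 12.3% at 16 h. CAGGTG and CAGATG were in 24.4% and 26.7% of windows found only with E47 at 4 h. With E47 at 16 h only they were in 29.7% and 18.9%. Any E-box, CANNTG, was as common in the E47-only windows (72.1%) as in all windows (72.3%), with 64.4% and 61.9% in the GFP-only and all-lists windows. The AP-1 motif TGANTCA was in 9.30% of E47-only and 20.3% of GFP-only windows (intervals 2.59% to 22.1% and 11.0% to 32.8%). Both shares were above the 4.90% of all-lists windows and the 7.81% of all windows. The motif of RUNX factors was in 11.6% of E47-only windows (3.89% to 25.1%) and 10.2% of GFP-only windows. In all-lists windows and in all windows it was in 3.76% and 5.27%. The windows differed in base composition, with a mean GC content of 55.4%, 56.4% and 62.2% in E47-only, GFP-only and all-lists windows and 53.8% in all windows, and its part in these shares was not tested. A match is a run of letters and not evidence of binding. Promoter windows hold a small part of the E47-only regions, and the others were not searched.

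Most E47-only regions were weak and narrow, which the rule itself favours. Their median width was 356 bp (range 85 to 1844 bp), against 678 bp for regions in all 4 lists and 335 bp for GFP-only regions. Fold enrichment had a median of 6.61 at 4 h (1.96 to 20.5) and of 6.30 at 16 h (2.05 to 18.6). Regions in all 4 lists had medians of 12 and 10.9 in the same E47 lists. As a measure of strength, the −log10 p of a region was turned into a percentile among all regions of the same list. The median E47-only region stood at 25.7 at 4 h and 18.3 at 16 h. Only 115 of the regions (5.51%) were above the median of both E47 lists, and 865 (41.4%) were below percentile 25 in both. A single deposited peak in each E47 list made up 32.1% of them, against 13.9% of regions in all 4 lists.

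**Figure D1:**
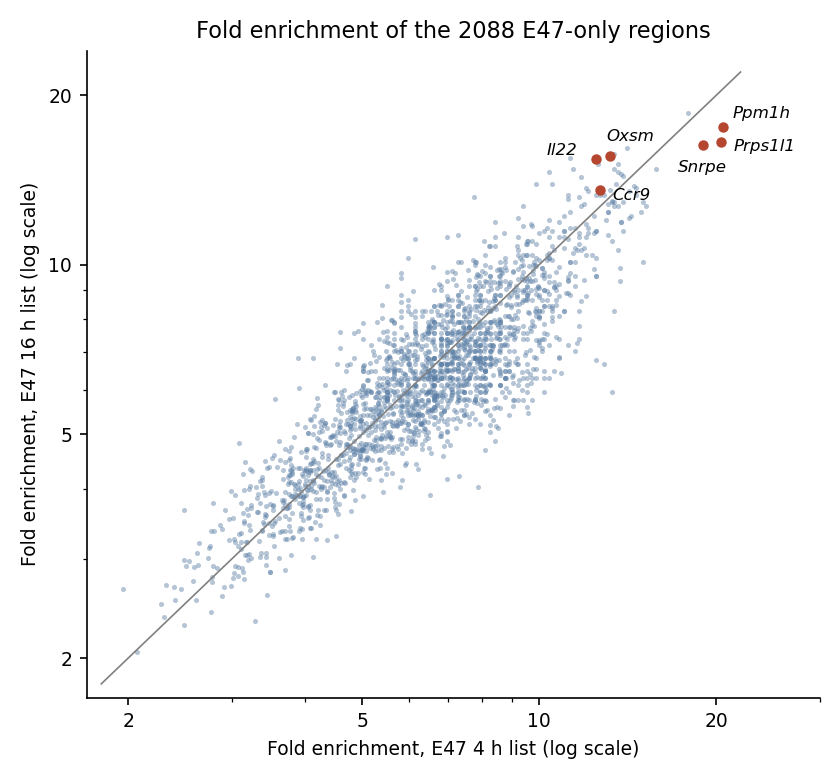
Authors' fold enrichment in the E47 4 h list (x axis, log scale) against the E47 16 h list (y axis, log scale); each point is 1 of the 2088 E47-only regions, red points are 6 of the strongest by the gene they are named for, and the line marks equal values. The points run from about 1.96 and 2.05 at the low end to 20.5 and 18.6 at the high end, and the regions of Il22 and Oxsm lie above the line.

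Among regions called in both E47 lists, absence from the GFP lists depended steeply on strength. Of those with a mean percentile up to 10 in the E47 lists, 44.5% (40.8% to 48.2%) were missing from both GFP lists. The share was 26.4% between 10 and 20, 16.0% between 20 and 30, 8.40% between 30 and 40 and 4.50% between 40 and 50. Between 70 and 80 it was 0.354%, and a single E47-only region lay above percentile 80. The GFP-only regions had the same shape, from 44.2% in the weakest bin through 33.3%, 21.7%, 12.4% and 6.75% to none above percentile 80. Between percentiles 10 and 50 the GFP-only share was higher in each bin, whereas between 60 and 80 the E47-only share was higher (1.06% against 0.545% in the lower of these bins). List length moved with these counts: 2780 regions were called only in the 2 longest lists, E47 at 4 h and GFP at 16 h, and 203 only in the 2 shortest. With all lists shortened to equal length 2387 regions met the rule.

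**Figure D2:**
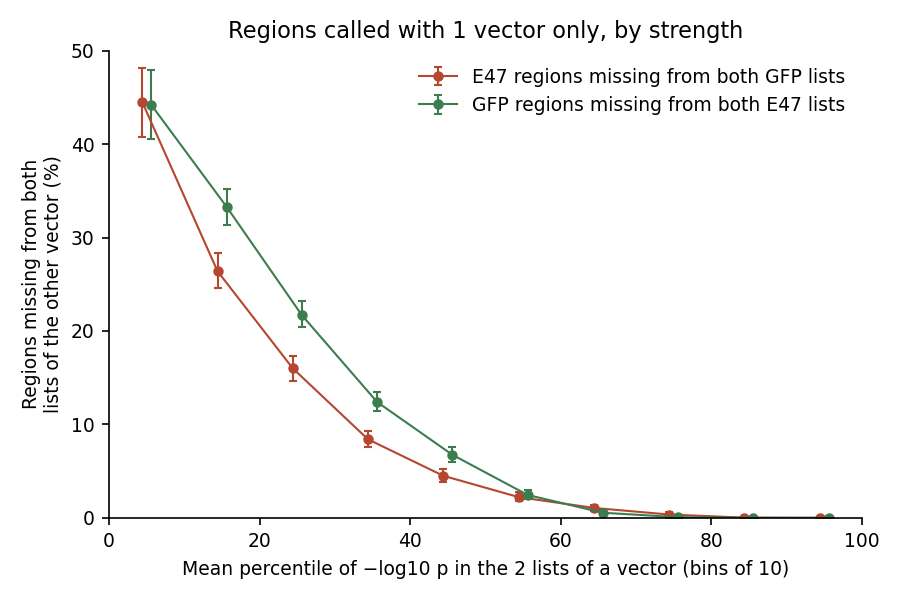
Share of regions called in both lists of a vector that were missing from both lists of the other vector (y axis, percent) against the mean percentile of −log10 p in the 2 lists (x axis, bins of 10), for E47 and GFP, with exact 95% intervals. Both curves start near 44% in the weakest bin and are below 1% above percentile 70.

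The 2 E47 lists placed the regions at the same spots: the summits of the 4 h and 16 h lists were a median of 9 bp apart, and 84.3% were within 50 bp. The edge of the rule was examined at its closest cases. The members nearest to a GFP region without touching it were named for Lekr1 (gap of 24 bp), Llph (36 bp) and Hectd3 (41 bp), with folds of 6.48 and 5.05, 6.86 and 5.94, and 4.12 and 4.15. Just outside, the regions at Stap2, Nabp2 and Tvp23b overlapped a GFP region by 74, 75 and 76 bp, with folds of 3.30 and 3.34, 3.92 and 3.38, and 3.94 and 4.48. In all, 296 E47-only regions (14.2%) lay within 200 bp of a GFP region.

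The strongest E47-only regions mostly lay far from gene starts. The first, 4078 bp from Prps1l1, a relative of the enzymes that make the nucleotide precursor PRPP (chr12:34990198-34990947), had folds of 20.4 and 16.5 and a mean percentile of 81.5. The second lay 25.3 kb outside Ppm1h, a protein phosphatase gene (chr10:122651816-122652373), with folds of 20.5 and 17.6. A further region inside Ppm1h (chr10:122758151-122758815, folds 10.6 and 10.6) was also among the strongest. Regions named for Oxsm, a mitochondrial fatty acid synthesis enzyme, and Snrpe, a core protein of the spliceosome, lay 65.1 kb and 53.8 kb from those genes, with folds of 13.2 and 15.6 and of 19.0 and 16.3. One region had no gene within 100 kb (chr2:46370837-46371409) and folds of 17.9 and 18.6. B4galt1, a galactosyltransferase of glycan synthesis, held its region inside the gene (folds 13.1 and 12.4).

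Below these in strength came regions near Chrna9, a subunit of an acetylcholine receptor (folds 14.5 and 13.8), Sag, the arrestin of photoreceptors (13.9 and 14.4), and Cpn2, a subunit of carboxypeptidase N (13.8 and 14.5). The region named for the ribosomal protein gene Rpl11 (chr4:136081471-136082357, folds 13.4 and 12.9) was 1 of 3 E47-only regions in a stretch of 19.6 kb between Rpl11 and Id3. A second was also named for Rpl11 (chr4:136088493-136089487, folds 7.21 and 9.20). The third was named for Id3, an inhibitor of E proteins (chr4:136100327-136101112, folds 7.34 and 7.91), and lay 43.3 kb from it. Gene names here are labels of position, the nearest protein-coding gene within 100 kb, and not assignments of regulation.

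Few E47-only regions were at the ends of genes. Their summits were within 1 kb of a gene end in 219 cases (10.5%, 9.21% to 11.9%), against 6.20% of GFP-only regions, 36.8% of regions in all 4 lists and 24.1% of all union regions. Strength moves with this share, so it was also read within bins of strength. Up to percentile 10, E47-only regions and the others of both E47 lists had the same share, 14.6% each, and between 10 and 20 they had 14.1% and 14.4%. From there they parted: 7.96% against 14.4% between 20 and 30, 7.35% against 15.7% between 30 and 40, and 5.65% against 16.4% between 40 and 50. In these 3 bins the exact intervals did not overlap (5.77% to 10.6% and 13.1% to 15.8% in the first). The strongest regions within 1 kb of a gene end were at Medag, an adipocyte differentiation gene (folds 13.3 and 13.0), and St3gal5, the sialyltransferase that makes the ganglioside GM3. St3gal5 had 2 of them, with folds of 12.5 and 13.3 and of 10.3 and 11.6. Next came Hps4, of lysosome-related organelle biogenesis (10.2 and 9.01), 2810021J22Rik (13.8 and 11.9), the kinase gene Csnk1d (11.7 and 7.79), Dpysl5 (8.38 and 9.31) and the calcium channel subunit gene Cacnb1 (5.67 and 6.36).

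Inside genes, over 1 kb from their ends, lay 53.0% of the E47-only regions, near the 53.8% of the GFP-only ones and above the 37.6% of regions in all 4 lists. No gene was within 100 kb of 114 regions (5.46%), against 7.82% of GFP-only regions. The nearest region present in all 4 lists was a median of 8.58 kb away, against 11.4 kb for GFP-only regions. The share of union regions that were E47-only ranged over the autosomes and X from 3.03% on chromosome 2 to 4.44% on chromosome 19.

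The change from 4 h to 16 h within the E47 lists was read among the 35236 regions that both E47 lists share. They were re-ranked by −log10 p within that common set, but list length can still bear on which weak regions both lists share. Of the E47-only regions, 64.5% (62.4% to 66.5%) stood higher at 16 h than at 4 h, with a median gain of 2.97 percentile points. Of the other regions of both E47 lists, 48.7% (48.2% to 49.2%) did. The gap widened with strength: 69.3% against 47.3% between mean percentiles 30 and 40, 75.7% against 48.1% between 40 and 50, and 83.5% (74.3% to 90.5%) against 48.6% between 50 and 60. The GFP-only regions within the GFP lists gave the mirror value of 55.8% (53.9% to 57.7%) against 50.1%, and 62.3% (52.3% to 71.5%) between 50 and 60. Taken whole, both sets stood higher at 16 h more often than the remaining regions of their vector, and the difference between vectors was not tested. Up to percentile 10 the shares were 66.3% against 56.3% for E47, and 38.2% against 40.5% for GFP. The 16 h list was the shorter one for E47 and the longer one for GFP, and the part of list length was not tested. Absence from the other vector's 2 lists chose the regions on values of the same cells, so these shares are descriptions.

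**Figure D3:**
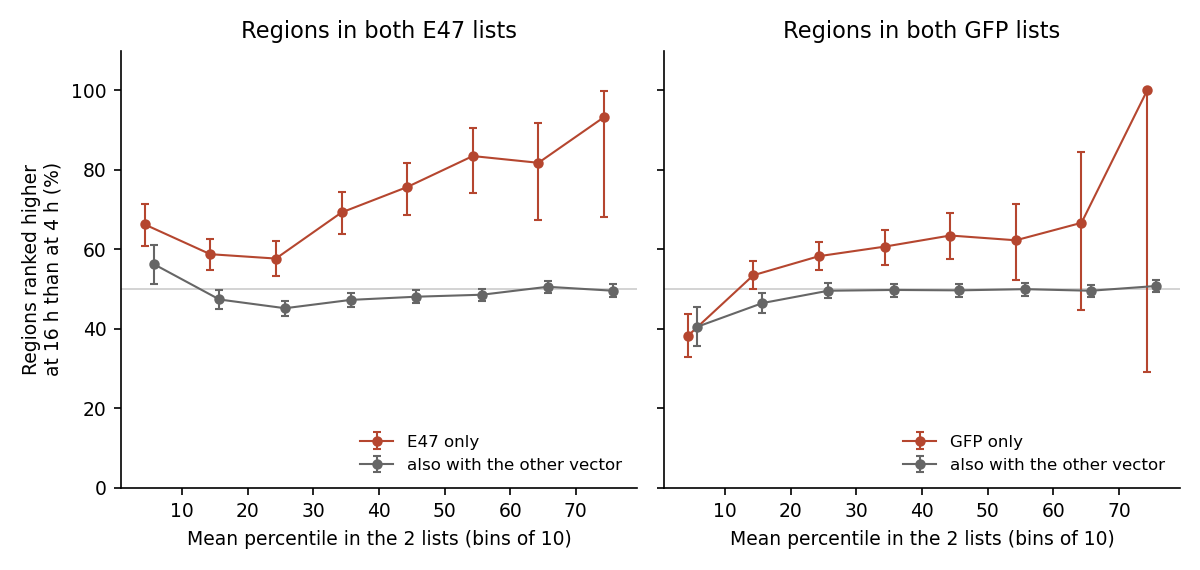
Share of regions that ranked higher at 16 h than at 4 h (y axis, percent) against mean percentile in the 2 lists of a vector (x axis, bins of 10), with exact 95% intervals; red points are regions called with that vector only and grey points those also called with the other. In the E47 panel the red points run from 57.7% to 93.3%, above the grey points in every bin; the last red point of the GFP panel rests on 3 regions.

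Several regions that ranked higher at 16 h were named for genes of immune cells. Il22, which encodes a cytokine of type 3 lymphocytes, had a region (chr10:118216017-118216822) with folds of 12.5 and 15.4 that gained 19.6 percentile points. The region of its duplicate Iltifb (chr10:118282651-118283438) had folds of 11.4 and 14.8 and gained 27.0 points. Reads cannot always be told apart between these copies. The gains of Hes1, a repressor downstream of Notch (78.0 kb from the gene, folds 7.36 and 10.1), and Selplg, the P-selectin ligand (folds 3.61 and 4.86), were 34.4 and 33.9 points. Stat4 (inside the gene, folds 8.20 and 10.8) and Cd27 (4.66 kb away, 5.86 and 7.36) gained 26.7 and 26.2 points. Cd28 (43.6 kb away, 8.41 and 10.8) gained 25.4 points. The greatest gain among regions above a mean percentile of 30 was 45.1 points at Ocm, a calcium-binding protein gene (folds 7.76 and 13.2). In the other direction, Thada (12.9 and 6.66), Dtnb (8.45 and 5.17) and Ttll5 (10.9 and 6.41) had values of -32.1, -29.1 and -25.7 points. Some regions named for genes of immune cells also ranked lower at 16 h, as at Thy1 (-11.5 points), Lif (-10.4) and Ifng (-8.53). Thy1 and Lif each had another region that gained (15.4 and 23.2 points). Genes for this paragraph were picked after their values were seen, and those of immune cells were not the ones with the greatest gains. Vti1a (42.2 points), Igf2r (39.9) and Crybg2 (36.5) gained more than any of the immune genes named.

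The E47-only regions were spread over many genes. Named were 1974 of them, for 1642 genes, which is 11.0% of the 14973 genes with any region, and 1391 of these genes had 1 such region. For GFP-only regions the share of genes was 13.7%. Both kinds occurred at 380 genes. Mgat5 had the most. It encodes an enzyme of the branching of N-glycans that tune receptor signalling in T cells. Of its 32 regions, 8 were E47-only and none was GFP-only. Their folds ran from 4.20 to 8.27 at 4 h and from 4.20 to 8.30 at 16 h, so each was weak on its own. All 8 lay inside the gene, from 25.8 kb to 239 kb from its first base, and 3 fell within 6.79 kb (chr1:127302694-127309488).

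Ppm1h had 6 E47-only regions of 34 and 2 GFP-only ones. Its 6 E47-only regions fell in 109 kb, from 26.6 kb before the gene start to 81.9 kb beyond it, with folds between 4.80 and 20.5 at 4 h. Itpr2, a calcium channel of internal stores, also had 6, of 35 regions, at folds from 3.43 to 7.02 at 4 h, with 2 GFP-only. Sla encodes an adaptor that damps T cell receptor signalling. It had 5 of 15 regions and none GFP-only. At Sla, 3 of the regions fell within 13.0 kb, the last of them (chr15:66824653-66825047) with folds of 6.75 and 8.49 and a gain of 23.7 points. Wwox, a very long gene for an oxidoreductase, had 5 of 41 and 3 GFP-only.

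A count of 4 E47-only regions was reached by Cdyl2, Sh3kbp1, Tgfbr2, Clec16a, Prss2, Trio, Prex1 and Aopep. Tgfbr2 encodes the ligand-binding receptor of TGF-β. Its regions had folds of 4.08 and 4.31, 6.11 and 6.29, 6.82 and 7.41, and 7.28 and 7.20, and 3 of them fell within 8.12 kb inside the gene. At Cdyl2, a chromodomain protein gene, 1 of the 4 was strong (chr8:116599499-116600218, folds 13.4 and 14.8). The X-linked Sh3kbp1, an adaptor of receptor uptake, had its strongest at folds of 11.8 and 14.3. The 4 at Prss2, a trypsinogen gene, lie within the T cell receptor β locus. Trio and Prex1 encode guanine nucleotide exchange factors, and their folds stayed between 3.20 and 7.51 together with those of the aminopeptidase gene Aopep. Of these 8 genes, Cdyl2, Tgfbr2, Prss2, Prex1 and Aopep had no GFP-only region.

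Dense runs were few. Within 10 kb of another E47-only region lay 223 of the 2088 (10.7%), in 107 runs, and no run held more than 3. The 9 runs of 3 were at Nfkbie (1.76 kb long), Map4k5 (4.31 kb), Mgat5 (6.79 kb), Tgfbr2 (8.12 kb), Plcg1 (8.22 kb), Ppp6r3 (11.3 kb), Prss2 (11.3 kb), Cbfa2t3 (12.7 kb) and Sla (13.0 kb). At Nfkbie, an inhibitor of NF-κB, at Map4k5, a kinase of stress signalling, at Plcg1, a phospholipase of receptor signalling, and at Ppp6r3 and Cbfa2t3, every region in the run was E47-only. Cbfa2t3, also called ETO2, is a corepressor that joins E protein complexes. Its 3 E47-only regions (of 5 regions) lay 1.75, 3.33 and 13.9 kb before its start, with folds of 4.29 and 4.30, 6.43 and 6.77, and 4.07 and 5.31, and gained 18.6, 21.3 and 21.6 points.

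The longest chain of E47-only regions, with no gap over 50 kb, lay in the gene desert beyond Id2, the E protein inhibitor on which innate lymphoid cells depend. It held 8 E47-only regions in 143 kb (chr12:25220091-25363278), from 124 kb to 267 kb beyond the higher-coordinate end of Id2 (chr12:25093799-25096092). The gene table gives no strand, so this end is not necessarily where the gene finishes. The next protein-coding gene by coordinate, Rnf144a, lies 944 kb further on. The stretch held 22 regions in all, of which 5 were in all 4 lists, 1 was GFP-only at both times, and 5 were called only in E47 at 4 h and 1 only in E47 at 16 h. The remaining 2 were in both E47 lists and 1 GFP list. The folds of the 8 were low, from 3.81 to 7.23 at 4 h and from 3.28 to 5.48 at 16 h. By contrast, the 3 regions within 10 kb of Id2 itself were in all 4 lists. Within 100 kb of Id2 lay 1 E47-only region, outside this stretch and not named for Id2. Non-coding genes Gm36287, Gm46343 and Gm36723 overlap the stretch. The locus was singled out after its values were seen, and nothing in these files ties the regions to Id2.

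**Figure D4:**
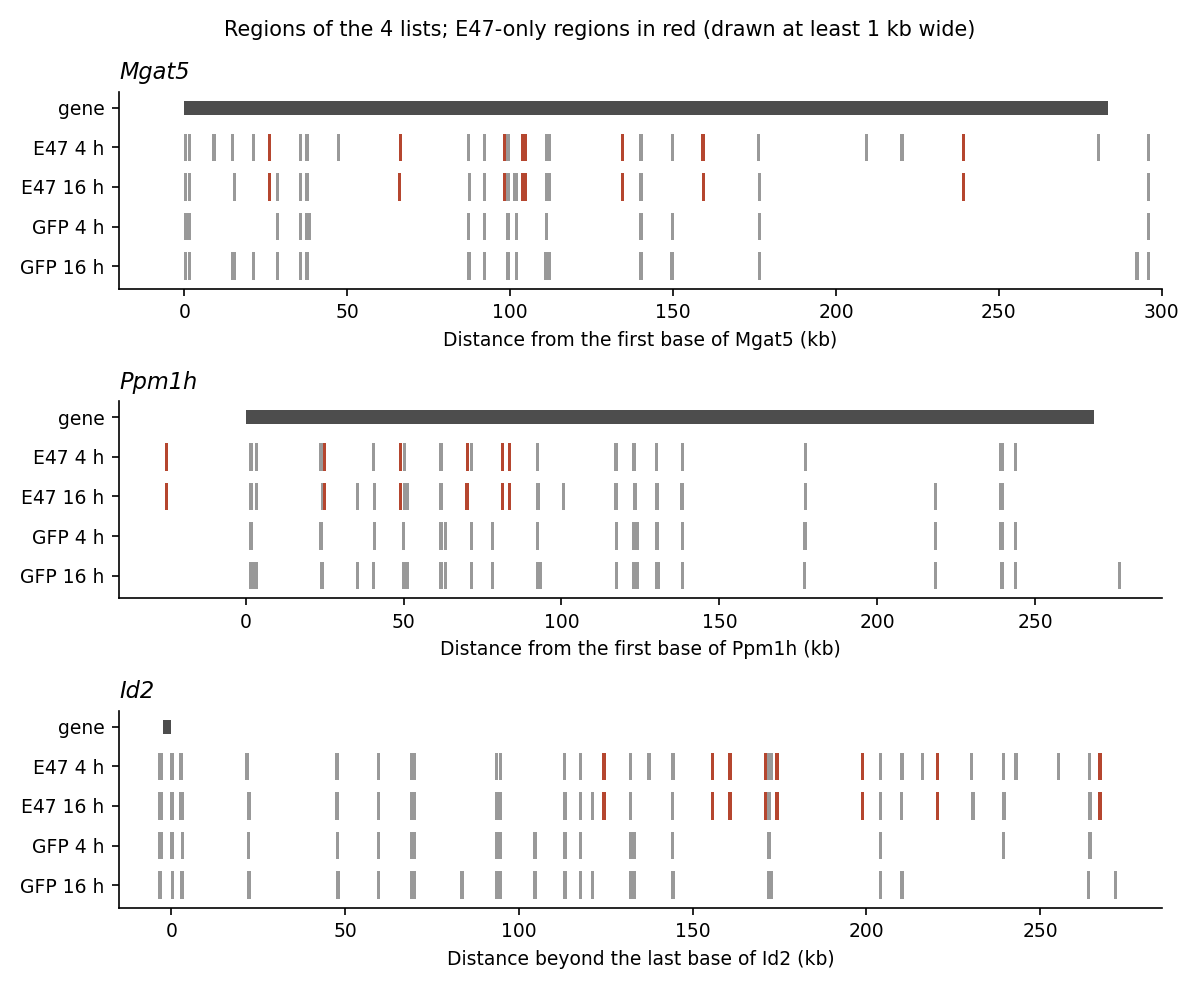
Regions of each of the 4 lists (rows) along Mgat5, Ppm1h and the stretch beyond Id2 (x axis, distance from the gene in kb), with the gene as a dark bar, E47-only regions in red and all other regions in grey. Red marks occur only in the 2 E47 rows by the rule; 8 lie inside Mgat5, 6 before and in the front part of Ppm1h and 8 between 124 and 267 kb beyond Id2. The last base of Id2 on the axis is the one with the highest coordinate, whatever the strand of the gene.

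Listed genes of the pathways named below were read against the background of 3.43% of regions and 11.0% of genes. Over all 19 lists, 114 of 2654 regions at listed genes were E47-only (4.30%, 3.56% to 5.14%), and 81 of 347 listed genes with a region had one (23.3%). Long or region-rich genes are more likely to hold one, so the share of regions is the fairer of both. The share was above 3.43% in 11 lists, and in all of these but the T cell and the type 3 list its interval held 3.43%. The members and lists were chosen with earlier results of these data known.

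Among E proteins, Id proteins and their partners, 8 of 103 regions were E47-only (7.77%, 3.41% to 14.7%), at 5 of 18 genes, and 4 were GFP-only. Besides the 3 of Cbfa2t3 and the 1 of Id3, these were 2 at Hes1, 1 at Bhlhe41 and 1 at Id4. The Id4 region lay 472 bp after the gene start (chr13:48261360-48261952, folds 5.69 and 6.54). Bhlhe41, a helix-loop-helix repressor, had its region 1.02 kb before the start (folds 3.88 and 5.21). All 10 regions named for Id2 were outside the E47-only set.

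For T cell development and receptor genes the share was 7.80% (4.61% to 12.2%), 17 of 218 regions at 12 of 27 genes, and 14 regions were GFP-only. Dntt encodes terminal transferase, which adds bases at receptor gene joints. It had 2, both inside the gene (chr19:41039117-41039689, folds 13.6 and 12.7; chr19:41053436-41053795, folds 7.77 and 7.02). Bcl11b, a T lineage factor, had 2 (4.04 and 3.71, 3.41 and 3.46) and also 2 GFP-only regions. Ets1 had 2 (7.78 and 5.31, 4.08 and 4.42), Cd2 had 2 and Thy1 had 2. Of the Thy1 regions, 1 lay 9 bp from the gene (folds 5.11 and 6.24). Genes with a single region included Tcf7 (9.59 and 8.89, 35.3 kb away), Runx3 (6.84 and 7.76), Gfi1, Tox, Cd27 and Cd28.

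The receptor gene segments themselves, which are not protein-coding entries of the gene table, were examined after their values were seen. In the T cell receptor α/δ, β and γ loci 15 of 121 regions were E47-only (12.4%, 7.11% to 19.6%) and 1 was GFP-only (0.826%, 0.0209% to 4.52%). The β locus had 5 of 22. One of them ended 4 bp from the diversity segment Trbd1 (chr6:41532555-41533197, folds 6.40 and 5.64). Another covered Trbd2 (chr6:41541612-41542347, folds 4.13 and 3.97), and the next covered Trbj2-4 to Trbj2-7 (chr6:41543364-41543852, folds 3.95 and 4.24). The last 2 covered the variable segments Trbv1 (5.24 and 4.89) and Trbv31 (3.31 and 3.85). The α/δ locus had 7 of 83, of which 5 covered variable segments. These were Trav15d-1-dv6d-1 (folds 8.91 and 9.30), Trav15n-1 (9.68 and 7.61), Trav15n-3 (8.09 and 6.48), Trav6-3 (8.25 and 7.02) and Trav4-3 (10.5 and 13.9). One of the other 2 lay 1979 bp from Trdd1 (chr14:54110951-54111489, folds 8.58 and 9.36). The γ locus had 3 of 16, with Trgv6 (6.18 and 5.73) and Trgv2 (6.45 and 5.48) covered. Some variable segments have near-identical copies, so reads there may be placed on a sister segment.

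At marker genes of T cells the counts of regions were mixed. Rag1 had 2, 0, 2 and 2 regions within 5 kb in the lists E47 4 h, E47 16 h, GFP 4 h and GFP 16 h, and Ptcra had 1 in each. Lck had 5, 5, 3 and 3 and Dntt 3, 3, 1 and 1, where the E47-only regions are 2 of the 3. Cd4 had 3, 1, 2 and 2, Cd3g 1, 1, 2 and 1, Cd3e 1, 1, 0 and 1, and Cd8a none. Of these 8 genes, Lck and Dntt had more regions in both E47 lists than in the GFP list of the same time, and the other 6 did not. The part that T lineage cells in the cultures may have in these regions was not tested.

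For type 3 innate lymphoid and Th17 genes the share was 9.76% (4.31% to 18.3%), with 8 of 82 regions at 7 of 14 genes and 4 GFP-only. It ranged from 8.11% to 13.3% over the other settings, and was not the highest of the lists in all of them. Il17a (chr1:20740454-20740951, folds 9.45 and 8.64) and Il17f (chr1:20766630-20767183, folds 11.5 and 10.1) each had 1, and both regions lay between these 2 neighbouring genes of inflammatory cytokines. Il23r, the receptor that sustains such cells, had 1 inside the gene (8.25 and 7.92). Lif had 2 (6.13 and 5.03, 7.85 and 9.63) and Lta had 1 over its start (3.43 and 3.59), beside those of Il22 and Iltifb. None of these 7 genes had a GFP-only region.

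ILC2 identity and effector genes had 6 of 228 regions E47-only (2.63%, 0.972% to 5.64%), at 3 of 26 genes, and 15 GFP-only (6.58%, 3.73% to 10.6%). Both intervals held the share over all union regions, 3.43% for E47-only and 4.56% for GFP-only. The 6 were at Rora, a nuclear receptor that ILC2s need, with 3 (5.38 and 5.10, 4.07 and 4.28, 8.58 and 7.96) of 29 regions, at Ccr9 with 2 and at Gfi1 with 1. Rora also had 1 GFP-only region. Ccr9, a receptor for homing to gut and thymus, had one of the stronger regions of the set (chr9:123754199-123754818, folds 12.7 and 13.6) 12.7 kb before its start and another at 10.3 kb (8.59 and 7.66). Gata3, Il1rl1, Klrg1, Il13, Areg, Il2ra, Il7r and Icos had no E47-only region within 5 kb.

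**Figure D5:**
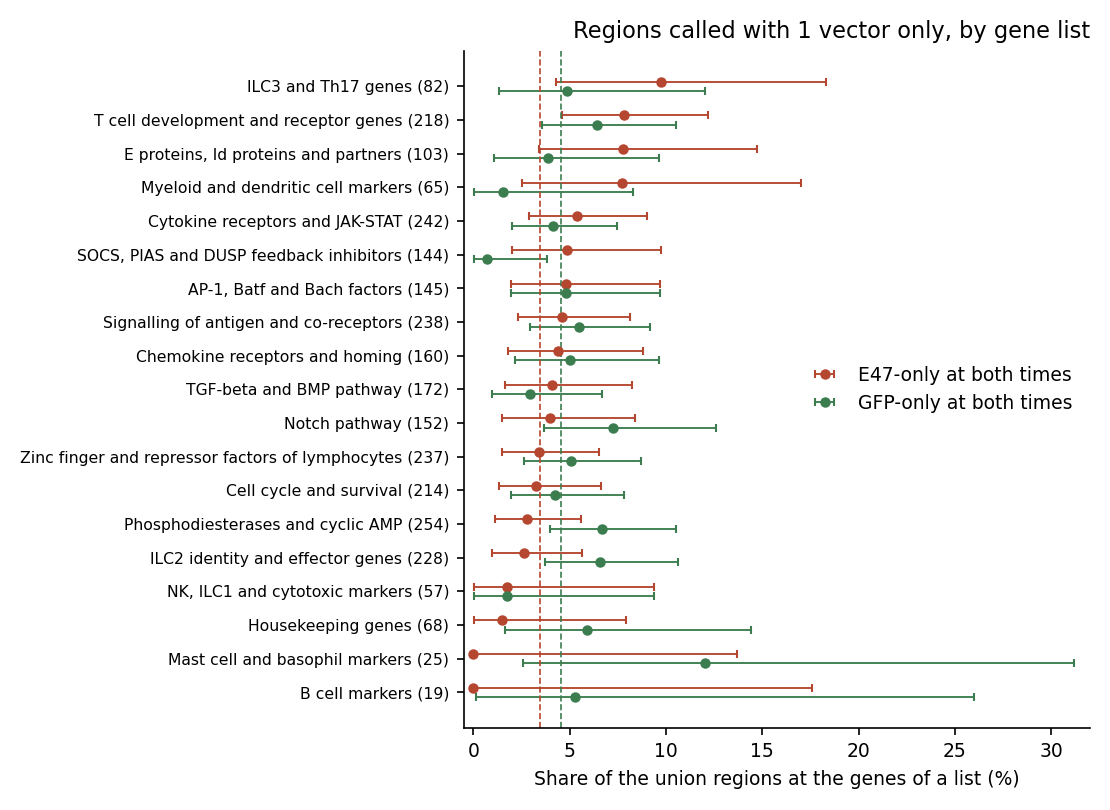
Share of the union regions at the genes of each of 19 lists (x axis, percent; number of regions in brackets) that were E47-only (red) or GFP-only (green) at both times, with exact 95% intervals; dashed lines mark 3.43% and 4.56%, the shares over all union regions. The type 3 and T cell lists have intervals wholly above the red line, and the interval of the ILC2 list holds it.

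Signalling genes followed. Cytokine receptors and JAK-STAT genes had 13 of 242 regions (5.37%, 2.89% to 9.01%) and 10 GFP-only, led by Tgfbr2, Stat4 and Jak1. Jak1 is a kinase of many cytokine receptors and had 2 regions inside the gene (7.42 and 7.60, 5.35 and 5.43). Il12rb2, a chain of the IL-12 receptor, had 1 only 102 bp after its start (5.66 and 5.94). Feedback inhibitors of the SOCS, PIAS and DUSP families had 7 of 144 regions (4.86%, 1.98% to 9.76%) and 1 GFP-only. Socs3 and Dusp5 had 2 each, and Socs1, Dusp4 and Spred1 1 each. The stronger at Socs3 had folds of 9.94 and 9.17. For antigen receptor and co-receptor signalling the count was 11 of 238 (4.62%), 13 being GFP-only, and beyond Sla it was made up by Cblb with 2, and Sla2, Pag1, Ptpn22 and Cd28 with 1 each. Cblb, a ubiquitin ligase that restrains activation, had folds of 7.93 and 5.94 and of 12.5 and 10.3.

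The other lists were close to the background. AP-1, Batf and Bach factors had 7 of 145 regions (4.83%) and 7 GFP-only, with 2 at Bach2 (6.80 and 7.38, 7.77 and 7.74) and 2 at Jdp2. The TGF-β pathway had 7 of 172 (4.07%), 4 of them at Tgfbr2 and the others at Tgfbr1, Smad6 and Ski. Notch pathway genes had 6 of 152 (3.95%) and 11 GFP-only, at Hes1, Maml3, Maml2 and Notch2. Lymphocyte zinc finger factors had 8 of 237 (3.38%) and 12 GFP-only. Ikzf1, the Ikaros gene, had 3 of its 26 regions (3.58 and 4.37, 6.14 and 6.12, 8.09 and 7.45), and Klf13 had 3. Chemokine receptors and homing molecules had 7 of 160 (4.38%) and 8 GFP-only, at Ccr9, Cxcr5 (7.71 and 7.94), Cd44, Itga4, Itgae and Selplg. Cell cycle and survival genes had 7 of 214 (3.27%) and 9 GFP-only, 1 each at Mcl1 (6.88 and 5.49), Cdk6, Ccnd2, Ccnd3, Bcl2, Bcl2l1 and E2f2. Phosphodiesterase and cyclic AMP genes had 7 of 254 (2.76%) and 17 GFP-only, 2 of the 7 at Pde4d.

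Lists of other cell types were read in the same way, and these shares cannot show whether such cells were in the cultures. Myeloid and dendritic cell genes had 5 of 65 regions E47-only (7.69%, 2.54% to 17.0%) and 1 GFP-only. The 5 were 2 at Irf8 (3.76 and 4.49, 5.58 and 5.05), and 1 each at Cebpe, Cebpb and Itgam (6.86 and 7.96). B cell markers had none of 19 E47-only and 1 GFP-only, and mast cell markers had none of 25 and 3. With lists of equal length the E47-only shares of these lists were 15.4% and 5.26%. NK and cytotoxic markers had 1 of 57, at Ifng (8.09 and 5.76), and housekeeping genes 1 of 68, at Gusb. The region over the Gzma start is not in that count, because its summit lies inside the overlapping gene Cdc20b and was named for it. In the SLAM receptor family, examined after its values were seen, 7 of 9 genes had regions. Of these 30 regions, 3 were E47-only (interval 2.11% to 26.5%, which held 3.43%). They lay at Cd244a, Cd48 and Slamf1. Ly9, Slamf7, Slamf6 and Cd84 had regions but no E47-only one, and the family's only GFP-only region was at Cd84. The Cd48 region lay 8.22 kb from the gene, with folds of 8.28 and 9.04.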

How the data were processed

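ATAC-seq of 8 samples in 4 groups of 2 was used. Groups follow the sample titles, which match the transduction and time labels. The build is mm10, and the tools named, per the submitters' processing notes, are MACS2, Bowtie2, cutadapt and DiffBind. Their versions and settings were not given in the sources used here. The labels name the deposited lists as conservative sets by irreproducible discovery rate, 1 per group. Each deposited line holds a score between 540 and 1000, a ratio of signal to local background (fold enrichment) and a −log10 p-value that is never below 2.00, as the authors gave them. The deposited −log10 of q and the score were not used.

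Overlapping lines of a list were merged, and regions of different lists overlapping by at least 1 bp were linked into union regions. Fold and −log10 p are the highest within a region and serve only to describe and rank regions within a list. Summits were assigned to the nearest protein-coding gene within 100 kb in a RefSeq table (GRCm38.p6, 21887 genes, without strand or exons). Promoter windows (32851, from RefSeq GRCm38.p6) covered 79.9% of these genes. As no genome was used here, the planned motif search at summits was replaced by these windows, and distances to gene starts were measured where a window gave one.

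The members, the 19 gene lists (375 genes, chosen by hand) and the naming rule were chosen with earlier results of these data known. The rule named the 12 strongest regions, the 12 genes with most regions, up to 4 genes per list, the 8 strongest within 1 kb of a gene end, the 5 densest runs and 3 cases on either side of the rule's edge. Further genes of the lists, the receptor loci, the SLAM genes, the stretch beyond Id2, the printed promoters and the genes named for their rank at 16 h were chosen after their values were seen. Some items that the rule names are not reported here. Intervals are exact (Clopper-Pearson) at 95% and cover counting error only, and neighbouring regions are not independent. The code was tested on simulated data. Scripts ran in Python 3.11.15 with numpy 2.4.6, pandas 2.3.3 and scipy 1.17.1; figures used matplotlib 3.10.9.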

Additional observations from a re-analysis of the deposited data

How the results depend on the processing

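The number of E47-only regions was 2102 with an overlap of 50% of the shorter region, 1770 when a gap of up to 200 bp counted as shared, 2387 with lists of equal length, 1493 with a fold of at least 5 in both E47 lists and 2042 on autosomes. With lists of equal length, 1403 of the 2088 regions (67.2%) overlapped a region that met the rule. It was 115 above the median of both E47 lists and 4171 for single summits matched within 150 bp; GFP-only regions numbered 51 and 4319 in the same settings, so which set was larger turned above the medians. The share within 1 kb of a gene end (10.5%) was 5.70% within 500 bp and 16.7% within 2 kb, 7.18% with the 200 bp gap and 6.09% above both medians. The share inside genes (53.0%) was 46.1% above both medians. Regions within 10 kb of another (223) numbered 146 within 5 kb and 555 within 50 kb. The promoter E-box share of 53.5% ranged from 51.2% to 60.0% over other settings, 3 of which, on the bases searched, were added after the data were seen. Searching only covered bases gave 51.2%, 27.1% and 34.2% for E47-only, GFP-only and all-lists windows. Ranking by fold in place of −log10 p, also added later, gave 60.2% of E47-only regions and 52.0% of all-lists regions higher at 16 h, against 64.5% and 47.9%. Between 9 and 13 gene lists exceeded the overall share in the alternatives, against 11.

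Motif windows around summits or region centres, and motifs of regions over 1 kb from a gene start, were not run because no genome was used here. Leaving out a replicate was not possible, since each list pools its 2 samples. No paired analysis was possible because the deposited lists carry no values per sample. Read depth is unknown, and it limits which weak regions were called.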

Other observations

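Immunoglobulin loci held 4 E47-only regions of 77 (5.19%, 1.43% to 12.8%) and 1 GFP-only region. All 4 E47-only regions covered variable segments of the heavy chain locus: Ighv8-4 (chr12:115023563-115024328, folds 14.6 and 13.7), Ighv9-1 (7.44 and 6.84), Ighv1-82 (7.93 and 8.82) and Ighv1-85 (8.41 and 4.86). The light chain κ locus had 9 regions and none was E47-only. Of 1005 microRNA hairpins, 2 were overlapped by an E47-only region, 7 had one within 1 kb and 41 within 10 kb. The same counts are not at hand for GFP-only or all union regions. Whether these hairpin counts are high or low is therefore unknown. The overlapped hairpins were Mir301b (folds 5.12 and 5.14, with Mir130b 106 bp away) and Mir3075 inside Zmiz1 (4.58 and 5.28). An E47-only region lay 972 bp from Mir342 inside Evl (5.89 and 5.92), and another lay 9302 bp from Mir29a (6.48 and 5.74). These loci were chosen after their values were seen.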
